A study of Sus scrofa with 8 samples.

Results

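FOS, FOSB, JUN, JUNB, EGR1, IER2, ATF3, NR4A1, DUSP1 and KLF4 are 10 immediate early genes, described here in the olfactory epithelium of newborn pigs from RNA-seq read counts. They were chosen by symbol, each matched 1 Ensembl identifier, and they are 10 of the 25880 pig genes counted. All 10 passed the filter on low counts, which kept 17175 genes. The study set 4 wild-type piglets, numbered 5, 9, 12 and 23, beside 4 CFTR knock-out piglets, numbered 6, 18, 20 and 21, to study how smell is lost in cystic fibrosis. The channel encoded by CFTR carries chloride and bicarbonate and is lost or impaired in that disease. Each library is named for a single piglet. The labels name no agent, no other allele and no cell sorting, and say that the dissected tissue was snap frozen.

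Immediate early genes are switched on within minutes of a stimulus, with no need for new protein synthesis. Growth factors, calcium entry, stress and, in neurons, electrical activity reach them through MAP kinases and factors such as SRF and CREB. Most encode transcription factors that carry the response on to later genes, and some, such as DUSP1, switch the signal off again. Their transcripts are short-lived, and FOS in particular is used to mark recently stimulated cells.

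In the coordinates of the deposited table, of an unstated genome build, FOS lies on chromosome 7 from 98449508 to 98453576 and FOSB on chromosome 6 from 51838277 to 51842399. JUN is also on chromosome 6 (153685682 to 153687639), and chromosome 2 holds JUNB (66214594 to 66215637), IER2 (65910620 to 65911285) and EGR1 (140441491 to 140471827). ATF3 lies on chromosome 9 (130772262 to 130785599) and NR4A1 on chromosome 5 (17399324 to 17411053). DUSP1 lies on chromosome 16 (51458262 to 51463541) and KLF4 on chromosome 1 (248604822 to 248609718). JUNB and IER2 each have 1 exon block.

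Library totals ranged from 30836904 to 43253395 counts. CFTR was lower in all 4 knock-out libraries (5.24 to 8.37 CPM) than in all 4 wild-type libraries (34.0 to 56.6 CPM), and it was the only gene of 17175 called by edgeR's quasi-likelihood test (Benjamini-Hochberg adjusted p = 0.0121). CPM is the read count scaled to library size, with library sizes adjusted by the TMM method. Some libraries stood apart from the rest. Knock-out piglet 18 had the highest level of COL1A1, a collagen of bone and connective tissue (17394 CPM, against 313 to 2057 CPM in the rest), and the highest share of mitochondrial reads (9.13%). Knock-out piglet 21 had the highest level of CXCL8, a chemokine that draws neutrophils (90.0 CPM, against 2.14 to 10.3 CPM). Y-linked reads, those of EIF1AY and KDM5D, were found in wild-type piglets 9 and 12 alone (1388 and 1640 reads). In a bulk sample, fewer cells of a type and less RNA per cell cannot be told apart.

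Corrected for gene length, the 10 genes spanned a wide range of levels in wild-type epithelium. The unit for this is TPM, in which length-corrected values of all genes sum to the same total in each library. JUN, the main partner in AP-1 dimers, was the most abundant at 296 ± 43.1 TPM (SD, n = 4), above 97.8% of the genes tested. IER2, a small nuclear protein of unsettled function, followed at 183 ± 12.8 TPM, and its highest wild-type library (192 TPM) lay below the lowest of JUN (242 TPM). DUSP1, a phosphatase that inactivates MAP kinases, had 57.0 ± 8.06 TPM and JUNB, an AP-1 subunit related to JUN, had 55.1 ± 5.23 TPM. The wild-type ranges of these 2 overlapped. EGR1, a zinc finger factor, had 36.1 ± 10.6 TPM, FOS, the founding dimer partner of JUN, had 24.9 ± 3.75 TPM, and KLF4, a Krüppel-like factor of epithelial differentiation, had 21.5 ± 4.51 TPM. NR4A1, an orphan nuclear receptor, followed at 16.2 ± 4.91 TPM and ATF3, a stress-induced repressor of the bZIP class, at 11.5 ± 3.21 TPM. From DUSP1 down to ATF3, each gene's wild-type range overlapped that of the next. FOSB, a close relative of FOS, was the rarest at 2.10 ± 0.715 TPM, with a highest library (2.77 TPM) below the lowest of ATF3 (8.03 TPM).

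**Figure D1:**
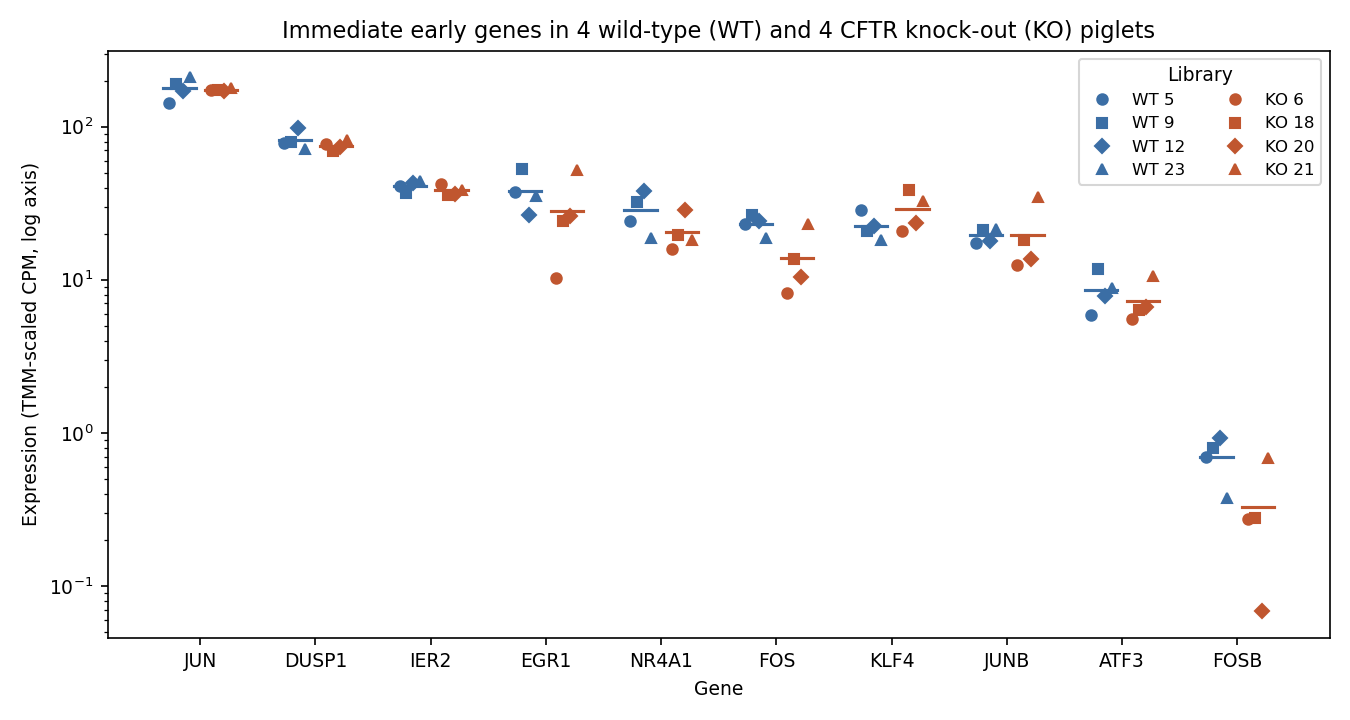
Expression of the 10 genes in each library, as TMM-scaled CPM on a log axis, with wild-type (WT) piglets in blue, CFTR knock-out (KO) piglets in red, a marker shape for each piglet and a line at each group mean. For FOS, knock-out piglets 6, 18 and 20 sit below every wild-type piglet and knock-out piglet 21 sits among them, and in all 10 genes the groups overlap.

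FOS had the smallest p of the 10 genes, and its knock-out libraries divided into 3 low values and a value at the wild-type level. In wild-type piglets 5, 9, 12 and 23 it was 23.1, 26.6, 24.1 and 18.7 CPM. In knock-out piglets 6, 18, 20 and 21 it was 8.22, 13.7, 10.3 and 23.3 CPM. Piglets 6, 18 and 20 lay below all 4 wild-type piglets, while piglet 21 lay inside their range. The group levels were 23.1 ± 3.31 CPM in wild-type and 13.9 ± 6.65 CPM in knock-out piglets (SD, n = 4 each). Fitted over all genes, the log2 fold change was -0.74 ± 0.29 (SE), with a 95% confidence interval from -1.40 to -0.07, and it did not pass the test (edgeR adjusted p = 0.419). FOS ranked 1351 among the 17175 genes by p, and the two-sided exact permutation p of its log2 CPM was 0.0857, where 4 against 4 libraries can give no less than 0.0286. In knock-out piglet 21, CXCL8 was high, as was MX2, an interferon-induced gene (59.3 CPM, against 6.53 to 24.4 CPM), and their part in its FOS value was not tested. Without that piglet the fold was -1.11 on the log2 scale (unadjusted p = 0.000493, edgeR adjusted p = 0.600). The unadjusted edgeR p of FOS, 0.0332 over all 8 libraries, was 0.0329 without wild-type piglet 23. It was 0.0533 to 0.0863 as each of the other 6 libraries was left out, with a log2 fold of -0.55 without knock-out piglet 6, and 0.141 with Y-linked reads as a covariate.

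FOSB was rare, and was again lowest in knock-out piglets 6, 18 and 20. It had 29, 25, 38 and 16 reads in wild-type piglets 5, 9, 12 and 23, and 12, 10, 3 and 29 reads in knock-out piglets 6, 18, 20 and 21. Knock-out piglet 20 was lowest at 0.0684 CPM (exact Poisson 95% interval 0.0141 to 0.200 CPM, counting error only). Piglet 21, at 0.686 CPM, again lay inside the wild-type range of 0.372 to 0.919 CPM. The log2 fold change of -1.08 ± 0.58 had a wide interval, from -2.38 to 0.22, and did not pass the test (edgeR adjusted p = 0.488). It was -1.74 without knock-out piglet 21 and -0.71 with the presence of Y-linked reads as a covariate, neither of them called (edgeR adjusted p = 0.600 and 0.709).

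EGR1 was also high in knock-out piglet 21, and it had the widest range of the 10 genes after FOSB. It was 37.4, 53.0, 26.6 and 35.0 CPM in wild-type piglets 5, 9, 12 and 23. In knock-out piglets 6, 18, 20 and 21 it was 10.3, 24.2, 26.2 and 51.8 CPM. Piglet 6 was lowest by a wide margin and piglet 21 second only to wild-type piglet 9, so that the groups overlapped over most of their range. Between the groups the log2 fold change was -0.43 ± 0.41 (edgeR adjusted p = 0.674). It was -0.91 without knock-out piglet 21, -0.16 without knock-out piglet 6 and -0.23 without wild-type piglet 9. In the deposited annotation 33 exonic bases of EGR1, 1.06% of the total, are shared with ETF1 on the other strand.

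ATF3 was high in the same 2 piglets as EGR1, wild-type 9 and knock-out 21. It was 5.87, 11.7, 7.86 and 8.82 CPM in wild-type piglets 5, 9, 12 and 23. Knock-out piglets 6, 18 and 20 had 5.56, 6.38 and 6.61 CPM and piglet 21 had 10.5 CPM. The groups overlapped, and the log2 value of the fold was -0.24 ± 0.26 (95% interval -0.83 to 0.36, edgeR adjusted p = 0.720). It was -0.47 without knock-out piglet 21, -0.13 without knock-out piglet 6, -0.05 without wild-type piglet 9 and -0.01 with Y-linked reads as a covariate.

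JUNB had group means of 19.5 ± 2.08 CPM in wild-type and 19.7 ± 10.3 CPM in knock-out piglets (SD, n = 4 each). Wild-type piglets lay between 17.4 and 21.4 CPM. Knock-out piglets 6, 18 and 20 had 12.4, 18.2 and 13.6 CPM, and piglet 21 had 34.7 CPM, the highest of all 8. Its log2 fold change was 0.02 ± 0.30 with an interval from -0.66 to 0.70 (edgeR adjusted p = 0.985). Without knock-out piglet 21 it was -0.40 (edgeR adjusted p = 0.600). JUNB is uncertain, because all 1044 of its exonic bases lie inside exons of PRDX2, a peroxidase gene on the other strand. HOOK2, also on the other strand, shares 331 of them (31.7%), and the sources used here do not say whether reads were counted by strand. The same limit holds for the TPM of JUNB, its ratio to JUN and its correlations. PRDX2 was 199 to 241 CPM in wild-type and 156 to 189 CPM in knock-out piglets, with 185 CPM in piglet 21, inside the knock-out range. HOOK2 was 21.2 to 25.0 CPM in wild-type and 21.6 to 30.9 CPM in knock-out piglets, with 27.8 CPM in piglet 21.

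**Figure D2:**
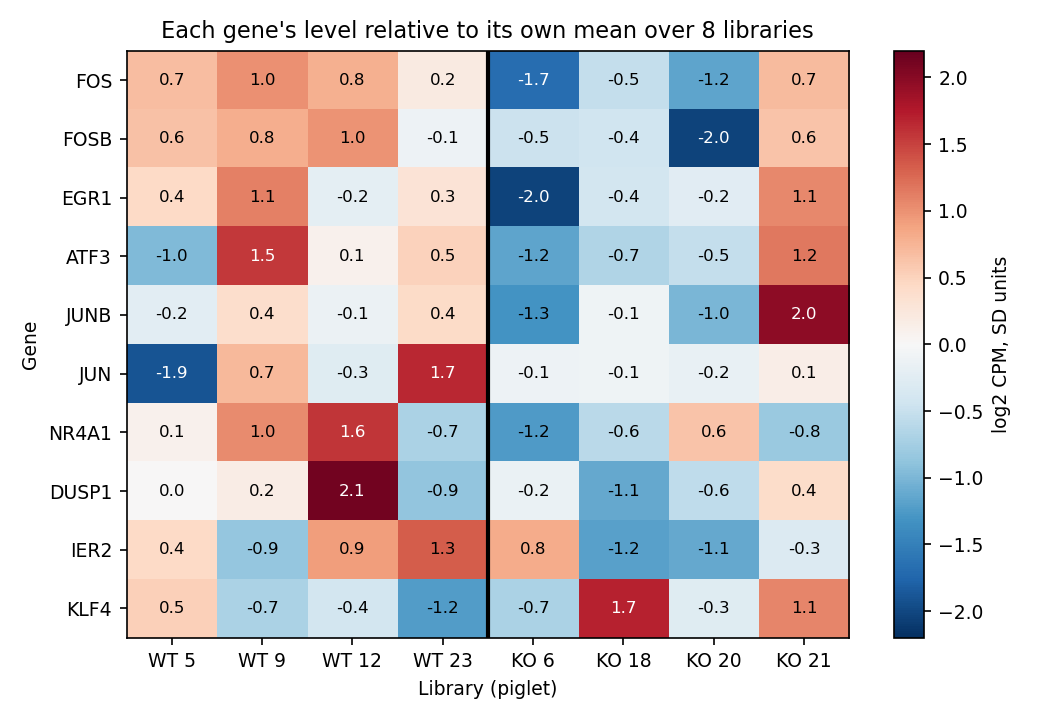
Level of each gene (rows) in each library (columns, wild-type piglets left of the black line), as log2 CPM minus the gene's mean over 8 libraries and divided by its SD. FOS, FOSB, EGR1, ATF3 and JUNB are all below their means in knock-out piglets 6, 18 and 20 and above them in knock-out piglet 21, and JUN and DUSP1 have the same signs in these 4 libraries, JUN by at most 0.16 SD. NR4A1, IER2 and KLF4 differ from this pattern. The order of rows was chosen after the values were seen.

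Counted by library, 7, 8, 6 and 6 of the 10 genes were above their own mean in wild-type piglets 5, 9, 12 and 23. In knock-out piglets 6, 18 and 20 it was 1 gene each, and in knock-out piglet 21 it was 8. The exceptions were IER2 in piglet 6, KLF4 in piglet 18 and NR4A1 in piglet 20. Some values lay close to the mean, such as JUNB in piglet 18 (-0.09 SD) and DUSP1 in piglet 6 (-0.15 SD). Each gene's mean includes piglet 21 itself, and no share over all genes is set beside these counts.

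In the knock-out piglets JUN lay inside the wild-type range. It was 142, 189, 170 and 210 CPM in wild-type piglets 5, 9, 12 and 23, and 172 to 178 CPM in the 4 knock-out piglets. Its log2 fold change was -0.03 ± 0.11 (edgeR adjusted p = 0.920), and the 95% interval of the fold, knock-out over wild-type, ran from 0.820 to 1.17. IER2 was 37.0 to 44.2 CPM in wild-type and 35.9 to 42.4 CPM in knock-out piglets, and the log2 fold change was -0.11 ± 0.09 (edgeR adjusted p = 0.625). DUSP1 was 71.2 to 97.7 CPM and 69.3 to 81.5 CPM (-0.12 ± 0.10, edgeR adjusted p = 0.655). Its log2 fold was -0.02 without wild-type piglet 12 and -0.18 without wild-type piglet 23. These 3 genes were the steadiest of the set, with biological coefficients of variation, the spread between piglets beyond counting error, of 13.5% or less. That of EGR1 was 40.8%, above 86.2% of the genes tested, and FOS and JUNB had 30.1% and 30.8%.

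NR4A1 was highest in the 2 wild-type piglets with Y-linked reads. It was 24.2, 32.4, 38.2 and 18.8 CPM in wild-type piglets 5, 9, 12 and 23. Knock-out piglets 6, 18, 20 and 21 had 15.9, 19.5, 28.4 and 18.2 CPM, so here piglet 20 and not piglet 21 was the highest knock-out. Its log2 fold change was -0.47 ± 0.25 (95% interval -1.03 to 0.09, edgeR adjusted p = 0.482). With Y-linked reads as a covariate it was -0.07 (edgeR adjusted p = 0.917), and without wild-type piglet 12 it was -0.30. The labels give no sex, and no knock-out library had such reads. Sex, as read from the Y-linked genes, is thus confounded in part with genotype.

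KLF4 had the only positive log2 fold change above 0.1 in the set, and its highest value in CPM came from knock-out piglet 18. Wild-type piglets 5, 9, 12 and 23 had 28.5, 20.9, 22.6 and 18.3 CPM. Knock-out piglets 6, 18, 20 and 21 had 20.9, 38.3, 23.3 and 32.8 CPM. In TPM piglet 21 was the highest of all, at 30.1 TPM, and piglet 18 had 29.5 TPM. The fold was 0.35 ± 0.21 on the log2 scale (edgeR adjusted p = 0.524) and 0.18 without piglet 18. In that piglet 8 summed fibroblast markers stood at 35804 CPM, against 1162 to 4693 CPM in the other libraries, and 6 bone cell markers at 6906 CPM, against 211 to 627 CPM. Most of the fibroblast sum was collagen, with COL1A1 at 17394, COL1A2 at 13273 and COL3A1 at 4213 CPM. Of the 8 fibroblast markers, 7 were positive in log2 fold change and FBLN1 was negative (198 CPM in wild-type and 147 CPM in knock-out piglets on average). The part of these markers in the KLF4 value was not tested.

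Of the 10 genes, 0 were called by edgeR, against 0.00582% of all genes tested, 0 by DESeq2, against 1.41%, and 0 by limma, against 0.0640%. FOS alone had an unadjusted edgeR p under 0.05 over the 8 libraries, with a lower level in the knock-out, and that p rose above 0.05 on leaving out any of 6 single libraries. This is 1 of 10 genes, against 5.80% of all genes on that side, and on the higher side it is 0 of 10, against 5.40%. In 0 of the 10 genes did the groups fail to overlap, against 5.81% of all genes, or 3.36% for those lower in the knock-out. Negative values were found in 8 of 10, against 48.4% of all genes. The median over the 10 genes was -0.18, and over all genes tested it was 0.01. Without knock-out piglet 21 the median of the 10 was -0.41, and with Y-linked reads as a covariate it was -0.04.

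**Figure D3:**
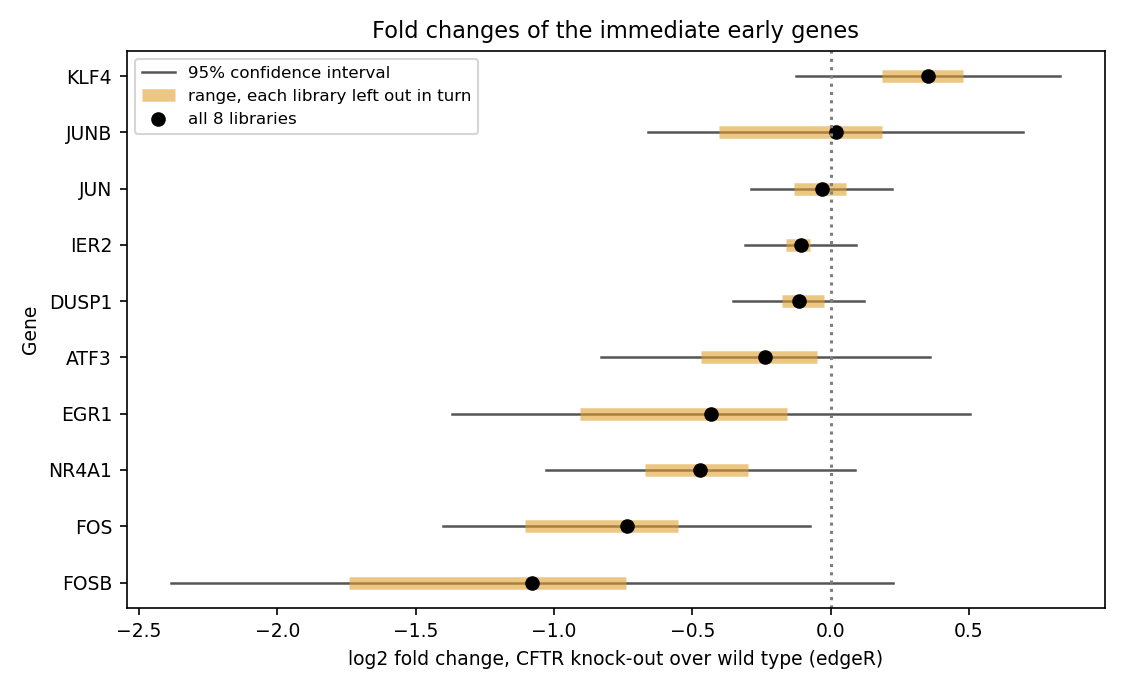
Log2 fold change of each gene in CFTR knock-out over wild-type piglets (edgeR, points), with its 95% confidence interval (thin line) and the range of the values when each library is left out in turn (thick bar). The interval of FOS alone ends below 0, and for JUNB and JUN the bar crosses 0.

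The genes did not vary as a single block across piglets. Of the 45 pairs, 32 had a positive Pearson correlation of log2 CPM over the 8 libraries, with a median r of 0.23 and a range from -0.54 to 0.84. FOS and EGR1 had r = 0.845 and rho = 0.833 (exact permutation p = 0.00486 and 0.0154), and FOS and FOSB had r = 0.828 and rho = 0.929 (exact permutation p = 0.00883 and 0.00223). JUNB and ATF3 had r = 0.776 and rho = 0.810, and EGR1 and ATF3 had r = 0.771 and rho = 0.762. None of the 45 pairs passed a Benjamini-Hochberg adjustment, with a smallest adjusted exact permutation p of 0.188 for r and 0.100 for rho, while 6 pairs had an unadjusted p for r under 0.05. Without the 2 libraries farthest from the median of FOS, knock-out piglets 6 and 20, r was 0.668 for FOS with EGR1 and 0.947 for FOS with FOSB. With the genotype means removed, the same pairs had 0.846 and 0.701. JUN, by contrast, had an r of 0.01 with its dimer partner FOS. Within the 4 wild-type libraries it was -0.39, and within the 4 knock-out libraries 0.88, where JUN ran from 172 to 178 CPM. JUN with JUNB had an r of 0.29 over the 8 libraries, 0.92 within wild-type and 0.94 within knock-out libraries. JUNB and IER2, which lie 303308 bases apart on chromosome 2 with 16 genes between them, had an r of -0.06.

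**Figure D4:**
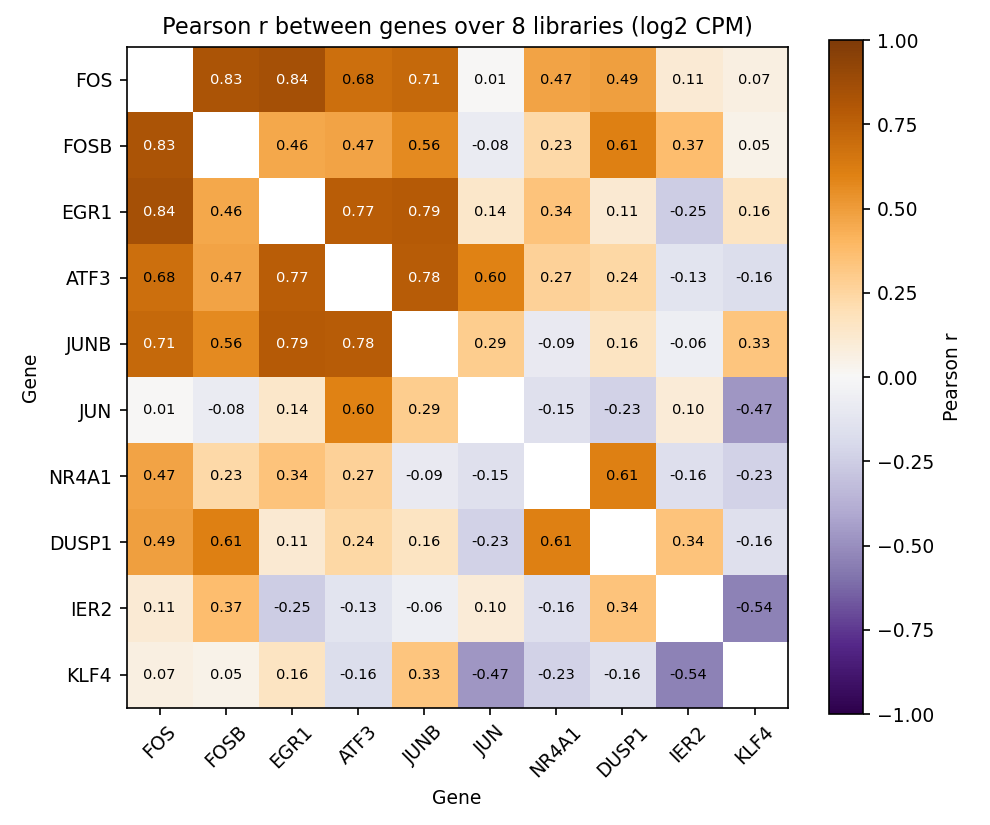
Pearson r between every pair of the 10 genes over the 8 libraries, from log2 CPM, with the genes in the order of the plot of levels relative to the mean. The first 5 genes have r between 0.46 and 0.84 with each other, and IER2 with KLF4 has the lowest value of all, -0.54. Within the 4 knock-out libraries alone, r among the first 5 genes was 0.33 to 0.99. Within the 4 wild-type libraries it was negative for FOS with JUNB (-0.23) and for FOSB with JUNB (-0.54), EGR1 (-0.03) and ATF3 (-0.02). The remaining pairs of these 5 genes were positive there.

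Ratios between related subunits do not depend on the scaling of a library. Per base of transcript, FOS was 9.23 to 17.3 times as abundant as FOSB in wild-type and 10.3 to 46.2 times in knock-out piglets. The highest ratio was that of piglet 20, with its 3 FOSB reads. The mean log2 ratios were 3.60 ± 0.38 and 4.13 ± 0.98 (SD, n = 4 each, exact permutation p = 0.429). Their difference of 0.53 was 0.061 without knock-out piglet 20 and 0.78 without knock-out piglet 6. JUN was 4.82 to 5.78 times as abundant as JUNB in wild-type piglets and 8.20, 5.59, 7.43 and 3.02 times in knock-out piglets 6, 18, 20 and 21. The mean log2 ratios of 2.42 ± 0.11 and 2.50 ± 0.65 did not differ beyond this spread (SD, n = 4 each, exact permutation p = 0.914). Adjusted over the 2 ratios, the exact permutation p was 0.857 and 0.914.

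In the lists of related genes, edgeR called 0 of the genes tested, and DESeq2 called 0 in all of the pathway lists but that of heat shock genes. Among 15 other AP-1 and bZIP subunits tested, 12 were positive and 3 negative in log2 fold change (median 0.08). MAFF, a small Maf protein, had 9.65 ± 2.28 CPM in wild-type and 15.0 ± 3.35 CPM in knock-out piglets (SD, n = 4 each), or 0.64 ± 0.21 on the log2 scale (edgeR adjusted p = 0.402). ATF6, a sensor of unfolded protein, had 0.27 ± 0.09, and FOSL1, an inducible Fos relative, had -0.72 ± 0.38 at a mean under 1 CPM. Of 17 other rapid-response transcription factors, 12 were negative (median -0.07). BHLHE40, a repressor tied to stress and the clock, had 0.72 ± 0.27, HES1, a Notch target, had -0.19 ± 0.12, and NAB2, which binds EGR1 and restrains it, had -0.43 ± 0.17. NR4A3 and NR4A2, relatives of NR4A1 named after their values were seen, had -0.90 ± 0.64 and -0.28 ± 0.20.

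Effectors, feedback genes and upstream components lay around 0. Of 22 other rapid-response effectors, 10 were negative and 12 positive (median 0.01). PPP1R15A, a phosphatase subunit of the stress response, averaged 167 ± 21.4 CPM in wild-type piglets, against 203 ± 15.5 CPM in the knock-out (SD, n = 4 each), and had no overlap between the groups (0.29 ± 0.11, edgeR adjusted p = 0.409). The groups did not overlap in 1 of these 22 genes, against 5.81% of all genes tested. HBEGF, a growth factor of the EGF family, had -0.58 ± 0.25, and PLK3, a stress-responsive kinase, had -0.43 ± 0.19. Of 19 feedback phosphatases, Sprouty and RNA decay genes, 11 were negative (median -0.08). SPRY4 had -0.33 ± 0.24, DUSP6, the phosphatase of ERK, had -0.12 ± 0.09, and DUSP8 had 0.16 ± 0.13. Of 25 upstream kinases and factors, 17 were positive (median 0.07). BRAF, a kinase above ERK, had 0.33 ± 0.11, RPS6KA1, a kinase below ERK, had 0.32 ± 0.16, and MAPK10, the neuronal JNK, had 0.28 ± 0.15, with edgeR adjusted p from 0.384 to 0.481.

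**Figure D5:**
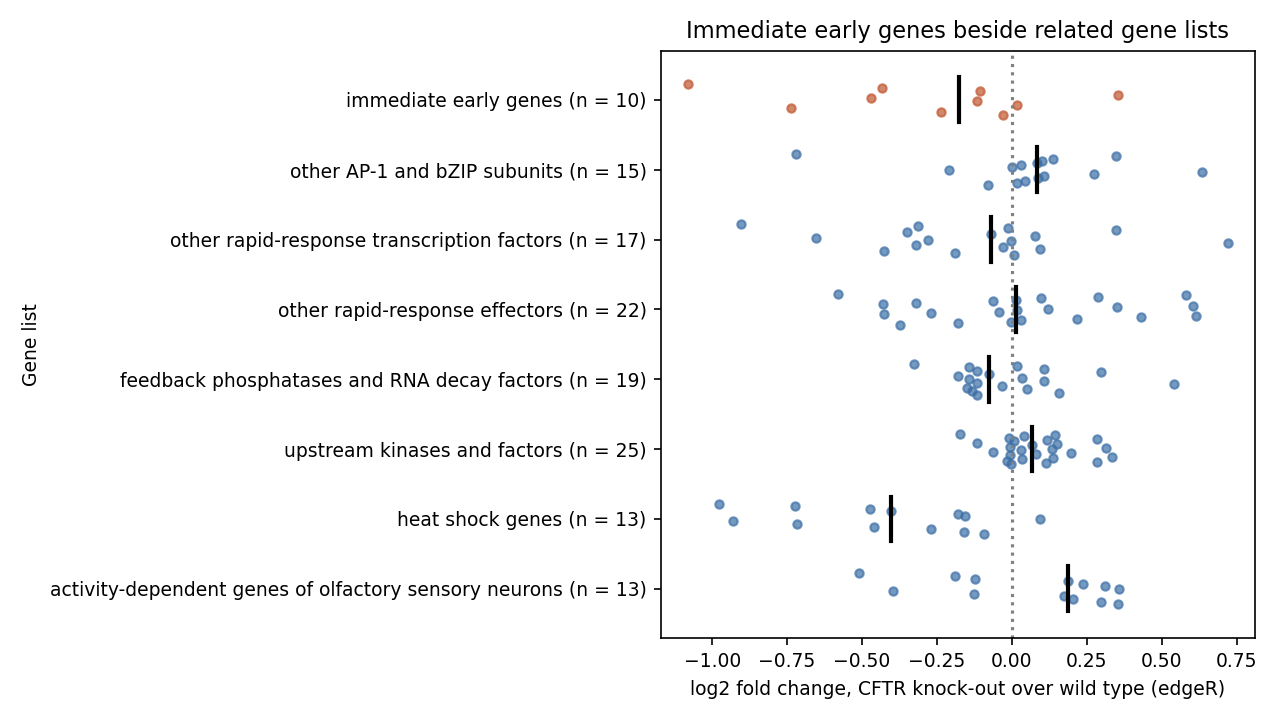
Log2 fold changes in CFTR knock-out over wild-type piglets (edgeR) of the tested genes in each list, with the immediate early genes in red and a black line at each median. The medians lie at -0.18 for the 10 genes, between -0.08 and 0.19 for 6 of the other lists, and at -0.40 for the heat shock genes.

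The heat shock list, of chaperones, cochaperones and the factors HSF1 and HSF2, was separated by genotype in summed level. Its members HSPA1A, HSPA1B and HSPA6 were not matched to an identifier. The 13 matched genes summed to 5306 to 7362 CPM in wild-type and 4443 to 5008 CPM in knock-out piglets, with no overlap. A large part of this difference lay in HSPA8 alone, which averaged 1825 CPM in wild-type and 926 CPM in knock-out piglets. Of the 13, 12 were negative (median -0.40), against 48.4% of all genes, and in 4 the groups did not overlap, against 5.81%. DESeq2 called 5, against 1.41% of all genes, limma called HSPA8 alone (adjusted p = 0.0446), and edgeR's smallest adjusted p was 0.326. HSPA8, the constitutive HSP70, had -0.98 ± 0.19, HSPB1, a small heat shock protein, had -0.93 ± 0.21, and DNAJA1, an HSP40 cochaperone, had -0.46 ± 0.12. Knock-out piglet 21, with its wild-type level of FOS, had 4747 CPM, inside the knock-out range. Whether these values and those of FOS are linked was not tested. Genes that follow activity in olfactory sensory neurons were mixed, with 8 of 13 positive (median 0.19). The list was not divided by whether activity raises or lowers a gene. Its count and median therefore give no direction of activity. EFNA5, an axon guidance ligand, had 0.35 ± 0.12 and NRP1, a semaphorin receptor, had 0.17 ± 0.07, while S100A5, a calcium-binding protein of mature neurons, had -0.51 ± 0.20.

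Markers of the cell types in the tissue were summed in each library. The 11 matched markers of mature olfactory neurons summed to 3214 to 5209 CPM in wild-type and 4498 to 5405 CPM in knock-out piglets, and none of them was at 0 in any library. OMP, the defining marker of these neurons, was not matched to an identifier. Sustentacular markers (9 genes) summed to 3173 to 4002 and 2834 to 4154 CPM, and horizontal basal cell markers (6 genes) to 217 to 361 and 234 to 301 CPM. Glial markers (10 genes) summed to 242 to 344 and 222 to 269 CPM. Neutrophil markers (5 genes) summed to 5.63 to 21.5 CPM in wild-type and 3.87 to 24.5 CPM in knock-out piglets, with 9.11 CPM in piglet 21. MPO or ELANE was at 0 reads in 6 of the 8 libraries. Other listed markers were not matched either. These were CNGB1 and STOML3 of neurons, CYP2G1 and SOX2 of sustentacular cells, and KRT5, KRT14 and KRT17 of horizontal basal cells. S100B of glia and S100A9 and CXCR2 of neutrophils were also missing. COL17A1 alone averaged 148 CPM in wild-type and 130 CPM in knock-out piglets within the horizontal basal cell sum. The part of cell composition in the values above was not tested.

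By the mean of the 10 genes, each scaled to unit SD, the genes most alike over the 8 libraries included 1 from the lists above. DUSP5, an inducible phosphatase of ERK, was the eighth with a Pearson r of 0.888. The first 7 were SLC35C1, a GDP-fucose transporter (0.949), SLC66A1 (0.936), CXXC1 (0.924), DPM2 (0.918), COQ7 (0.912), PC (0.892) and TAS1R3 (0.891). These are the highest among 10670 named genes averaging 5 CPM or more, and the values are a description of these 8 libraries.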

How the data were processed

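Messenger RNA of 8 piglets was made into TruSeq libraries, per the labels. Raw counts for each gene were deposited by the authors in the layout of featureCounts, per the file headers, together with the other value used, each gene's exonic length. The submitters' processing notes list DESeq2, HTSeq, featureCounts, FastQC, Subread 1.5.0-p3 and STAR 2.4.0, without roles. The genome build and the strand setting are not given in the sources used here. Symbols were paired with 14857 of 25880 pig identifiers, and 5888 identifiers of an extra sequence and 100 control identifiers were left out. The main test was the quasi-likelihood F-test in edgeR 4.0.16 under R 4.3.3 (TMM, default filter, genotype as the factor, Benjamini-Hochberg over 17175 genes at 0.05), with standard errors from the F statistic. Log2 CPM used a prior of 0.5 reads. TPM was computed from counts and exonic lengths. DESeq2 1.42.0, limma 3.58.1, other scalings and filters and the omission of each library were run beside it, and the fit was tested on simulated data.

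The 10 genes, the lists and the tests were chosen with earlier results of these data known. Genes named were CFTR, the 10 members, up to 3 per list with the smallest p, and the 8 most alike. Others are marked or given as context for a library. The planned promoter search was not run, and no sequence is printed.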

Additional observations from a re-analysis of the deposited data

How the results depend on the processing

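Over 179 alternative values of the 10 fold changes, 170 kept their direction and 0 passed the threshold, with a smallest adjusted p of 0.216 (limma, FOS). The 9 that turned were those of genes near 0. JUNB was -0.043 with library totals alone, -0.056 by limma, -0.0061 without wild-type piglet 5 and knock-out piglet 18, and -0.40 to 0.19 as each library was left out. DUSP1 was 0.012 with Y-linked reads as a covariate and 0.0091 in the libraries without them, both added after seeing the data, as was the joint omission. JUN was -0.13 to 0.058 as each library was left out. The log2 difference of the JUN to JUNB ratio, 0.08, ran from -0.093 to 0.39 in the same way. The median r between the genes, 0.23, was 0.14 with genotype means removed and 0.20 without the 2 libraries farthest from the median of the first gene of each pair. Over all genes edgeR called 1, DESeq2 246 and limma 11. EdgeR called 2 without wild-type piglet 5 and knock-out piglet 18, 0 in the libraries with no Y-linked read, and 0 to 16 as each library was left out (16 without wild-type piglet 12, 0 without knock-out piglet 6 or 20). FOSB had no value with a filter at 1 CPM. No paired analysis was possible because the 2 groups share no piglet number. FOSB had 3 to 38 reads a library, and its counting error, a coefficient of variation of 19.2% in wild-type and 27.2% in knock-out piglets, lay below the observed 33.6% and 79.2%.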

Other observations

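JUN was almost constant among the knock-out piglets after TMM scaling. Its coefficient of variation there was 1.46%, against 16.1% among wild-type piglets, and counting error alone gives 1.18% at the mean knock-out count. On the TPM scale, which does not correct for composition, the same 4 libraries gave 11.2% and the wild-type libraries 14.6%. Without knock-out piglet 18 the TPM value in the knock-out was 2.89%. The value thus depends on the scaling, and the difference in spread was not tested.

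FOS, FOSB, JUNB and EGR1 had larger coefficients of variation among the 4 knock-out than among the 4 wild-type piglets on both scales. In CPM they were 47.9% and 14.3% for FOS, 79.2% and 33.6% for FOSB, 52.1% and 10.7% for JUNB, and 61.4% and 29.1% for EGR1, in that order. In TPM they were 47.2% and 15.1%, 80.5% and 34.0%, 51.8% and 9.49%, and 62.3% and 29.3%. ATF3 and IER2 were also more variable in the knock-out on both scales, with 30.6% and 28.5%, and 7.90% and 7.58%, in CPM. Their TPM values were 31.7% and 28.0%, and 16.9% and 7.01%. JUN was less variable in the knock-out on both scales, and NR4A1, DUSP1 and KLF4 changed direction between the scales. Much of the difference for FOS and JUNB, and part of that for FOSB and EGR1, rested on knock-out piglet 21. Without it, in an alternative added after seeing the data, the knock-out values in CPM were 25.5% for FOS, 58.0% for FOSB, 20.8% for JUNB and 42.7% for EGR1. In TPM they were 13.2%, 57.1%, 6.45% and 42.8%, so that for FOS and JUNB the knock-out value was then below the wild-type one. Other piglets mattered as well. In CPM the knock-out value of FOSB was 57.3% without knock-out piglet 20, and that of EGR1 was 45.1% without knock-out piglet 6. These differences in spread were not tested.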
